A study of Mus musculus with 6 samples.

Results

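The genes described here encode the machinery by which neurons load, dock, fuse and recover synaptic vesicles. They are 41 genes listed by symbol: RIM and Munc13 priming factors, SNAREs, complexins, synaptotagmins, synapsins, vesicle membrane proteins, Rab3 GTPases, endocytic adaptors and vesicular transmitter transporters. On the Affymetrix mouse array all 41 had a probe set with that symbol alone, 108 of the 45101 probe sets and 41 of the 18194 genes named on it. Membership rests on the gene symbol alone.

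Expression was measured in cells sorted from dissociated olfactory epithelium of CD1 mice with a FITC-conjugated antibody to ICAM1, also called CD54. ICAM1-positive cells formed 1 group of 3 arrays and ICAM1-negative cells of the same 3 litters the other, at postnatal days 21, 22 and 24 for litters 1, 2 and 3. Nothing in the labels names a transgene, mutation or treatment in either group, and each litter gave 1 array per sort, so the spread is that between 3 litters, and litter and age cannot be told apart. The ICAM1-negative sort is every collected cell without the antigen, so it mixes cell types.

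Array intensities are scaled linear values, and 98 of the 108 probe sets exceeded an intensity of 16 on at least 3 of the 6 arrays and were tested. The median intensity of an array lay between 87.9 and 102.8, and values near or under it carry no detection call. Icam1 was measured at 7247, 6817 and 6857 on ICAM1-positive arrays and at 13, 16.1 and 33.2 on ICAM1-negative arrays. That follows the titles and population labels and goes against the free-text sample descriptions, which name the opposite sort. Horizontal basal cell markers, Icam1 among them, were higher in ICAM1-positive cells in 8 of 8 and macrophage markers in 9 of 10. Mature olfactory neuron markers were lower in 10 of 11 and immature neuron markers in 9 of 9, so neurons of the labelled tissue were measured in the ICAM1-negative sort.

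An olfactory sensory neuron sends its axon to the olfactory bulb and releases glutamate there, and the transcripts for that release are made in the cell body, which lies in the epithelium. Vesicles are filled by a transporter, primed at the active zone by RIM and Munc13 proteins, and held ready by complexin. Calcium binding to a synaptotagmin then triggers fusion by the SNAREs syntaxin, SNAP-25 and synaptobrevin, and dynamin and adaptor proteins take the membrane back. Relatives of many of these proteins run secretion and membrane traffic in cells that are not neurons.

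Promoter windows, from 250 bases before to 50 bases after an annotated start of a gene, were given by RefSeq (GRCm38.p6) for 33 of the members. Such a start is not always the outer end of the gene. The stretches printed for Unc13b, Rab3c and Cplx2 precede a start but lie inside the annotated gene, which for Unc13b begins at chr4:43046193. Those of Rims2, Snap25, Vamp2, Syt4, Syt5, Syt7, Doc2b and Syn3 were not. The windows were searched on both strands for letters of motifs known from neuronal and olfactory genes. The repressor REST binds the RE1 element, whose left and right parts were searched as TTCAGCACC and GGACAGC, and the olfactory factor EBF binds a motif whose core was searched as TCCCNNGGG. The TATA box was searched as TATAAA and the cAMP response element as TGACGTCA. None of the matches in members overlapped another. The stretches below are shown since they hold the RE1 and EBF matches of members that passed the test, with matched letters in capitals, each 5′ to 3′ on the strand of its gene.
Syn1, chrX:20921058-20921162, minus strand, bases -244 to -140 from the start: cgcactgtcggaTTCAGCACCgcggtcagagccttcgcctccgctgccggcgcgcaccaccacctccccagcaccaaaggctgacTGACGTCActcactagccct
Unc13a, chr8:71671727-71671750, minus strand, bases 8 to 31 from the start: GCTGTCCgcgcccccGGTGCTGAA
Stx1a, chr5:135023346-135023378, plus strand, bases -136 to -104 from the start: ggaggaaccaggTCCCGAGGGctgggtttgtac
Rab3c, chr13:110280278-110280310, minus strand, bases -104 to -72 from the start: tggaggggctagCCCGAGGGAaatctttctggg
Cplx2, chr13:54302320-54302352, plus strand, bases -236 to -204 from the start: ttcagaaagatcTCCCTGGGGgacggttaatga
Unc13b, chr4:43058857-43058889, plus strand, bases -96 to -64 from the start: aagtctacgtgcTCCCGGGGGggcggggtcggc
Sypl, chr12:32953829-32953859, plus strand, bases -116 to -86 from the start: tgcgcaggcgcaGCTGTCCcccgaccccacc

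The left RE1 part was found in 2 of the 33 members, Syn1 and Unc13a, and in 0.433% of the 27025 genes with a window. In Unc13a both parts lay on the opposite strand, 8 bases apart, and in Syn1 a cAMP response element stood downstream of it. The right part was found in 3 of 33 members (Unc13a, Sypl and Rph3a) and in 7.59% of all genes. The EBF core was found in 5 of 33 members, Cplx2, Rab3c, Stx1a, Unc13b and Slc32a1, and in 7.48% of all genes. A TATA box was found in 2 members, Rab3b and Sv2b, against 15.7% of all genes, and the cAMP response element in 1, against 2.03%. The windows of members had a median GC content of 62%, against 52.8% over all genes. A match is a description of letters in a window and not a binding site. The RE1 and EBF matches were found in members that fell (Syn1, Unc13a, Stx1a, Rab3c, Cplx2) and in the members that rose (Sypl, Unc13b).

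In ICAM1-positive cells 32 of the 41 genes were lower, 2 were higher and 7 did not pass the test at an adjusted p under 0.05. Over all 16399 genes tested in the same comparison, 22.2% were lower and 21.3% higher, 43.6% in either direction. With low values raised to the array median, 32 members were lower and 2 higher, against 28.8% and 25.8% of all genes. Raising makes dim probe sets nearly constant, and adjusted p fell even for genes whose values did not change (Stx1a, 9.87e-19 against 0.00413). The raised counts are therefore no independent check. The median log2 difference, ICAM1-positive minus ICAM1-negative, was -2.89 over the members and -0.06 over all genes, and that of the members was -2.34 with low values raised. Of the 32 genes lower without raising, 28 differed by 2-fold or more on the raised values and 15 by 8-fold or more. Unc13a, Pclo, Erc2 and Syt2 fell short of 2-fold. The 32 genes lower on the raised values are not the same set: Syt2 did not pass (-0.001, adjusted p = 0.996) and Unc13c did (-0.66). By probe set, 66 of the 98 tested were lower and 7 higher, against 19.3% and 17.8% of all probe sets. For 35 of the 41 genes all 3 ICAM1-positive arrays lay below all 3 ICAM1-negative arrays, an arrangement seen in 30.1% of all genes, and for 2 they lay above, seen in 27.8%. In such bulk samples fewer cells of a type and less RNA per cell cannot be told apart. Without litter 1, 2 or 3 the number of lower members was 25, 24 and 27, and Unc13b lost its call each time, leaving 1 higher.

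**Figure D1:**
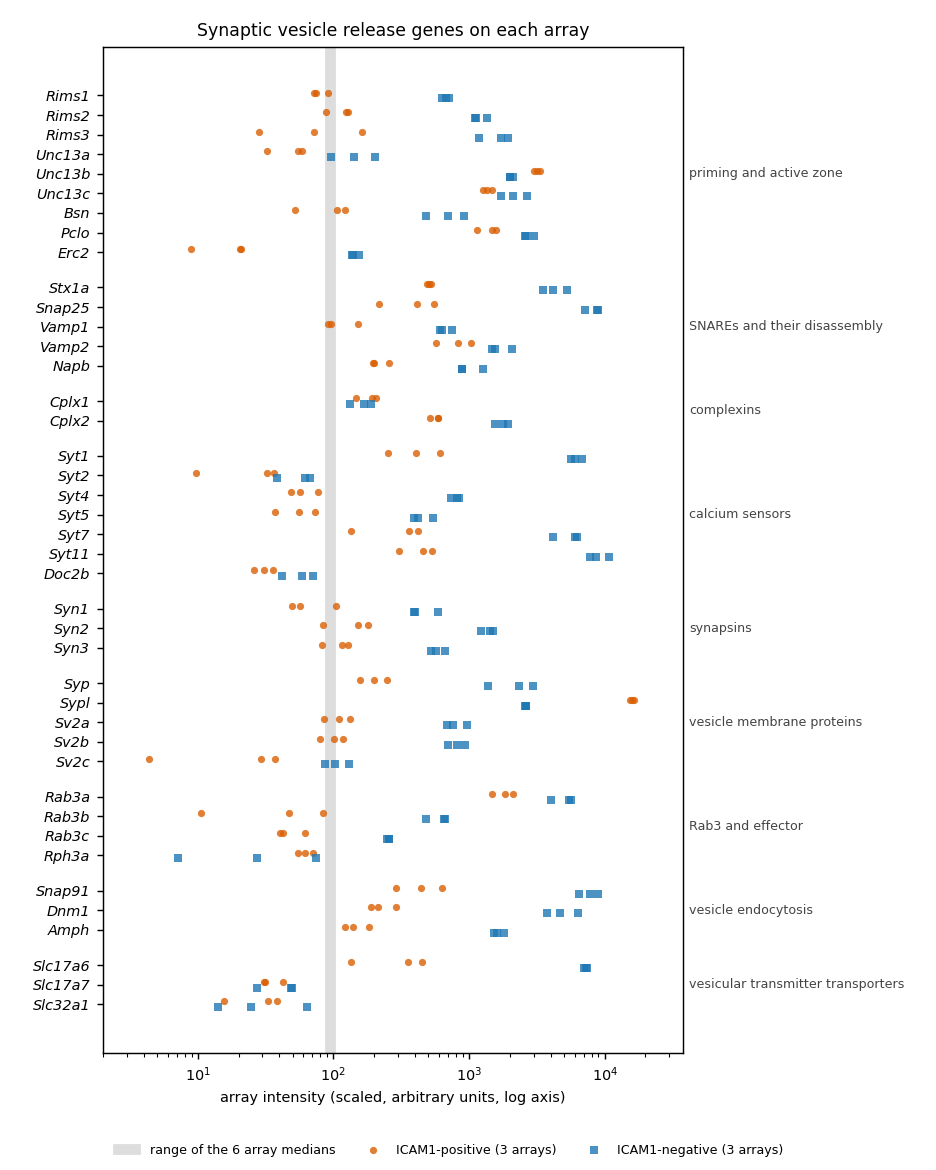
Intensity on each array (log axis) of the 41 genes, in rows grouped by role, with ICAM1-positive arrays as circles and ICAM1-negative arrays as squares; the grey band spans the 6 array medians, 87.9 to 102.8. The circles lie left of the squares for 35 genes and right of them for Unc13b and Sypl.

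Of the 3 transporters that fill vesicles with transmitter, 1 was lower and 2 did not pass. Slc17a6, which encodes VGLUT2, the glutamate transporter of olfactory sensory neurons, was measured at 133.9, 354.2 and 447.6 on ICAM1-positive arrays and at 7366, 7341 and 7041 on ICAM1-negative arrays. Its difference of -4.71 ± 0.43 (log2, SE; adjusted p = 0.00758) was the lowest of the 41 genes, and a further probe set gave -3.47 ± 0.43. The groups did not overlap, although without litter 2 the adjusted p was 0.0509. Slc17a7, encoding VGLUT1, stood at 30.8 to 42.2 on ICAM1-positive and 27.4 to 49.2 on ICAM1-negative arrays. Slc32a1, the transporter of GABA and glycine, stood at 15.5 to 38.6 and 14.1 to 64.3 in the same order. Both lay below the array median on all 6 arrays, so no difference was detectable (adjusted p = 0.458 for Slc17a7 and 0.886 for Slc32a1).

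All 5 genes of the SNARE complex and its disassembly were lower. Snap25, the SNARE of the plasma membrane that gives the complex a pair of helices, had 215.2, 412.7 and 551 in ICAM1-positive cells and 8942, 7207 and 8801 in ICAM1-negative cells. Its difference was -4.50 ± 0.36 (adjusted p = 0.00605), and its other tested probe set, under the median on every ICAM1-positive array, was at least 1.64-fold lower. Stx1a, the plasma membrane syntaxin of synapses whose promoter stretch is printed above, had 491.8, 528.8 and 503 in ICAM1-positive and 3482, 5280 and 4163 in ICAM1-negative cells (-3.06 ± 0.16, adjusted p = 0.00413). The other Stx1a probe set gave -3.49 ± 0.17, with 140.3 to 176.1 in ICAM1-positive cells. The groups did not overlap for Snap25 or Stx1a. Vamp1 and Vamp2 encode the synaptobrevins of the vesicle. Vamp1 averaged 112.8 ± 33.5 in ICAM1-positive and 663.5 ± 79.3 in ICAM1-negative cells (SD, n = 3 each; -2.59 ± 0.16). For Vamp2 the means were 812 ± 234 and 1704 ± 321 in the same order (-1.10 ± 0.17, adjusted p = 0.0190), and the call was lost without any 1 litter (adjusted p = 0.0759 to 0.0843). With probe sets averaged Vamp1 missed the threshold (-1.64, adjusted p = 0.0533). Napb encodes beta-SNAP, a brain relative of alpha-SNAP that helps NSF take spent SNAREs apart. It was lower by 4 of its 5 tested probe sets, at -2.21 ± 0.13 for the probe set with the highest mean.

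In the group listed as calcium sensors, which held the listed synaptotagmins and Doc2b, 6 of 7 genes were lower. Syt1, the sensor of fast synchronous release, had 252, 409.8 and 616.2 in ICAM1-positive cells and 5601, 6063 and 6840 in ICAM1-negative cells (-3.95 ± 0.25, adjusted p = 0.00468). Syt7, a slow sensor with high calcium affinity, had 135.7, 360 and 422.1 in ICAM1-positive cells and 4168, 6055 and 6219 in ICAM1-negative cells (-4.30 ± 0.28, adjusted p = 0.00471). In both, litter 1 gave the lowest ICAM1-positive value. Syt11, a synaptotagmin that does not bind calcium, had 305.9, 455.8 and 532 in ICAM1-positive and 8629, 7836 and 10805 in ICAM1-negative cells (-4.42 ± 0.20, adjusted p = 0.00406). All 5 of its probe sets were lower, from -3.76 to -4.42.
Syt4 had 48.3, 56.6 and 77.5 in ICAM1-positive cells, under the median of each array, and 838.7, 737.1 and 818.6 in ICAM1-negative cells. With the dim side raised to the array median, Syt4 was at least 8.26-fold lower and Syt5 at least 4.65-fold lower. The fit without raising gave adjusted p = 0.00413 for Syt4 and 0.00989 for Syt5, but 0.0586 for Syt5 without litter 2. Syt2, a fast sensor of other neurons, lay below the median on all 6 arrays. Its call (adjusted p = 0.0484) was lost without the litter block (0.139) and without any 1 litter (0.0789 to 0.127). It was also lost with no filter on low values (0.0657), with a variance trend (0.0686) and with probe sets averaged (0.216). The other probe sets of Syt2, below the median too, were not lower, at 0.39 (adjusted p = 0.488) and 0.015 (0.987). Doc2b, a sensor of spontaneous release, was also below the median throughout and did not pass (adjusted p = 0.0899); it did without the litter block (0.0472).

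Of the 9 priming and active zone genes 7 were lower, 1 was higher and 1 did not pass. Rims1, a RIM scaffold of the active zone, had 75, 71.4 and 91.2 in ICAM1-positive and 708.4, 681.5 and 630.1 in ICAM1-negative cells (adjusted p = 0.00417). Rims2, its close relative, had 88, 123 and 128.1 in ICAM1-positive and 1350, 1130 and 1102 in ICAM1-negative cells (-3.42 ± 0.23, adjusted p = 0.00512). Rims3, a short RIM, had 28.4, 72.5 and 163 in ICAM1-positive and 1725, 1195 and 1934 in ICAM1-negative cells. The sorts did not overlap for these RIM genes, although Rims3 (-4.51 ± 0.56, adjusted p = 0.0129) missed the threshold without litter 2 (0.0657). Its ICAM1-positive values in litters 1 and 2 lay under the array median, and its difference was -3.80 with low values raised and -3.81 without litter 1. The large scaffolds Bsn and Pclo, encoding bassoon and piccolo, differed by -2.95 ± 0.37 and -0.98 ± 0.20. That of Pclo, from its probe set with the highest mean, was under 2-fold, while another gave -2.38 ± 0.16 and the last, under the median on every ICAM1-positive array, was at least 3.35-fold lower. The scaffold gene Erc2 was at least 1.48-fold lower. Calls were lost for Bsn without litter 3 (adjusted p = 0.0726), for Erc2 without litters 1 (0.0569) or 2 (0.0559), and for Pclo without any 1 litter (0.0968 to 0.119) or with no filter on low values (0.0521).

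The Munc13 priming factors, which open syntaxin for SNARE assembly, did not move together. Unc13b, encoding Munc13-2, had 3017, 3352 and 3192 in ICAM1-positive cells and 2102, 2005 and 2007 in ICAM1-negative cells. Each ICAM1-positive array was higher, by 0.64 ± 0.13 (adjusted p = 0.0357), but the call was lost without any 1 litter (0.132 to 0.139), with no filter on low values (0.0557) and with probe sets averaged (0.0909). Unc13c, encoding Munc13-3, had 1263, 1482 and 1350 in ICAM1-positive cells and 2112, 2695 and 1735 in ICAM1-negative cells and did not pass (-0.66 ± 0.17, adjusted p = 0.0572), though it did in 4 alternatives. Unc13a, encoding Munc13-1 and carrying the RE1 matches printed above, had 54.8, 58.5 and 32.5 in ICAM1-positive and 202.3, 96.5 and 142.1 in ICAM1-negative cells. It was at least 1.46-fold lower (adjusted p = 0.0426), with the call lost without litter 1 (0.165) or 3 (0.146), with no filter (0.0581) and after quantile normalisation (0.0546).

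Of the complexins, which clamp and then promote fusion, Cplx2 was lower and Cplx1 did not pass. Cplx2 had 515, 587.7 and 590.8 in ICAM1-positive cells and 1553, 1773 and 1950 in ICAM1-negative cells (-1.64 ± 0.13, adjusted p = 0.00589), and its 3 probe sets were all lower. Cplx1 had 206.3, 147.4 and 192 in ICAM1-positive and 168.6, 132.7 and 187.9 in ICAM1-negative cells, and the groups overlapped (0.16 ± 0.14, adjusted p = 0.418). A further probe set of Cplx1, passed as lower (adjusted p = 0.0342) but lay below the median on all 6 arrays, so no size is given.

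The 3 synapsin genes, whose products tether vesicles in the reserve pool, were all lower. Syn2 had 84.1, 151 and 181 in ICAM1-positive and 1222, 1509 and 1422 in ICAM1-negative cells (-3.39 ± 0.23, adjusted p = 0.00509), and 5 of its 5 tested probe sets were lower. Of these, 3 gave -1.59 to -3.39, and the other two, under the median on every ICAM1-positive array, were at least 1.08-fold and 1.62-fold lower. Syn1 averaged 70 ± 29.7 in ICAM1-positive and 461.7 ± 111 in ICAM1-negative cells (-2.77 ± 0.17, adjusted p = 0.00435). For Syn3 the difference was -2.44 ± 0.19 (adjusted p = 0.00583). These calls held without each litter.

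**Figure D2:**
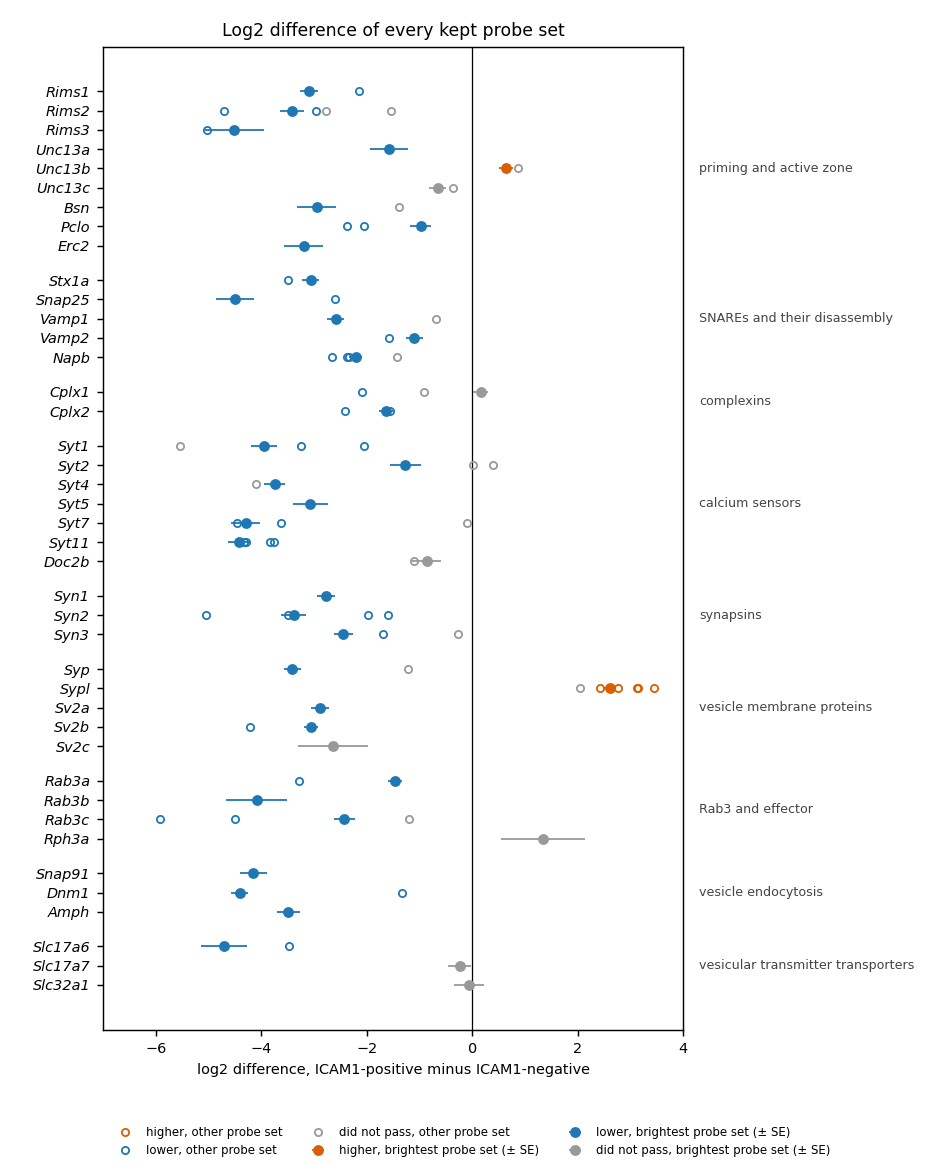
Log2 difference (ICAM1-positive minus ICAM1-negative) of each of the 98 probe sets tested, in rows by gene. Filled points with SE bars are the probe set of a gene with the highest mean, open points its others, orange is higher, blue lower and grey did not pass; orange points appear for Sypl and Unc13b, and no gene has both orange and blue points. Points are fitted differences, also where arrays lay under the array median.

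Among the 5 vesicle membrane proteins 3 were lower, 1 was higher and 1 did not pass. Sypl, encoding pantophysin, a synaptophysin relative found in many tissues, had 15859, 16367 and 15322 in ICAM1-positive cells and 2586, 2615 and 2627 in ICAM1-negative cells. Its difference was 2.60 ± 0.12 (adjusted p = 0.00406), and 6 of its 7 probe sets were higher, by 2.41 to 3.45, the seventh lying below the median on all arrays. Syp, encoding synaptophysin itself, had 200.8, 156.4 and 249.4 in ICAM1-positive and 2317, 1381 and 2957 in ICAM1-negative cells (-3.41 ± 0.16, adjusted p = 0.00406). The pair thus ran in opposite directions in each litter, with no overlap between sorts for either gene. Of the SV2 glycoproteins, Sv2a averaged 109.4 ± 24.4 in ICAM1-positive and 806.3 ± 148 in ICAM1-negative cells (-2.89 ± 0.17). Sv2b averaged 99.4 ± 18.5 and 821.3 ± 117 in the same order (-3.05 ± 0.13), and both passed with adjusted p = 0.00435 and 0.00406. Sv2c was dim, at 4.4 to 37 in ICAM1-positive and 87.4 to 129.7 in ICAM1-negative cells, and did not pass (adjusted p = 0.0546). It passed with 32 added before the log (0.00263), with a variance trend (0.00638) and with probe sets averaged (0.0465).

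The 3 Rab3 GTPases on the list, which bring vesicles to RIM, were lower. Rab3b had 47.1, 10.6 and 84.4 in ICAM1-positive cells and 666.3, 478.1 and 649.6 in ICAM1-negative cells, at least 6.13-fold lower (adjusted p = 0.0169, but 0.0815 without litter 1). Rab3c was at least 2.63-fold lower (adjusted p = 0.00632). Rab3a differed by -1.47 ± 0.13 (adjusted p = 0.00753; 0.0581 without litter 1 and 0.0525 without litter 2) by its probe set with the highest mean. That probe set bears the suffix by which Affymetrix marks probes shared with other sequences, as do those printed for Stx1a and Syt11. The other Rab3a probe set gave -3.29 ± 0.13. The effector Rph3a lay below the array median on all 6 arrays and did not pass (adjusted p = 0.266).

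The endocytic genes were lower in all 3 cases. Dnm1, the dynamin of neurons that cuts vesicles from the membrane, had 190.4, 211.5 and 289 in ICAM1-positive and 4659, 3773 and 6343 in ICAM1-negative cells (-4.41 ± 0.16, adjusted p = 0.00406). Snap91, encoding the clathrin adaptor AP180, had 289.6, 444.9 and 627.5 in ICAM1-positive and 7807, 6525 and 8915 in ICAM1-negative cells (-4.15 ± 0.26, adjusted p = 0.00452). Amph, encoding amphiphysin, which recruits dynamin, had 140.6, 122.3 and 183.8 in ICAM1-positive and 1605, 1803 and 1540 in ICAM1-negative cells (-3.49 ± 0.22, adjusted p = 0.00451). Each ICAM1-positive array was below each ICAM1-negative array, and the calls held without each litter.

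Probe sets of a gene did not always give the same result, but none were called in opposite directions. Of 29 genes with at least 2 tested probe sets, 15 had every probe set with the same result, 14 had some that passed and some that did not, and 0 had calls in opposite directions. Of the 25 probe sets that did not pass, 17 lay below the array median on all 6 arrays. The 3 above it on all arrays belonged to Unc13c and Cplx1.

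The level that remained in ICAM1-positive cells was set beside that of olfactory neuron markers. For the 32 lower members, the ICAM1-positive level was a median of 10.8%, 11.3% and 12.6% of the ICAM1-negative level in litters 1, 2 and 3. These include 8 genes under the median on every ICAM1-positive array. Mature neuron markers that fell (10 genes) had 6.15%, 9.87% and 10.5% left, and immature neuron markers that fell (9 genes) 4.61%, 6.27% and 7.47%. Summed intensity of the mature list was 6378 to 12330 on ICAM1-positive arrays and 93540 to 107100 on ICAM1-negative arrays, and of the immature list 5892 to 9289 and 63140 to 81400 in the same order. The 15 lower members above the array median on every array had 8.67%, 6.82% and 9.01% left. Of these 15, 11 had their lowest ICAM1-positive value in litter 1, as had 7 of the 10 mature and 8 of the 9 immature markers. Over all 32 lower members the lowest value was in litter 1 for 18, in litter 2 for 11 and in litter 3 for 3. The same count over all genes is not given here. The part of neuron content in these differences was not tested.
Other lists moved too: 7 of 8 ciliated cell markers and 3 of 7 neuroendocrine and autonomic markers (Chga, Chgb and Prph) were lower, with Th higher. The neuroendocrine list summed to 768 to 1305 on ICAM1-positive and 13670 to 15870 on ICAM1-negative arrays, Dbh, Npy and Vip did not pass, and their part was not tested either.

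**Figure D3:**
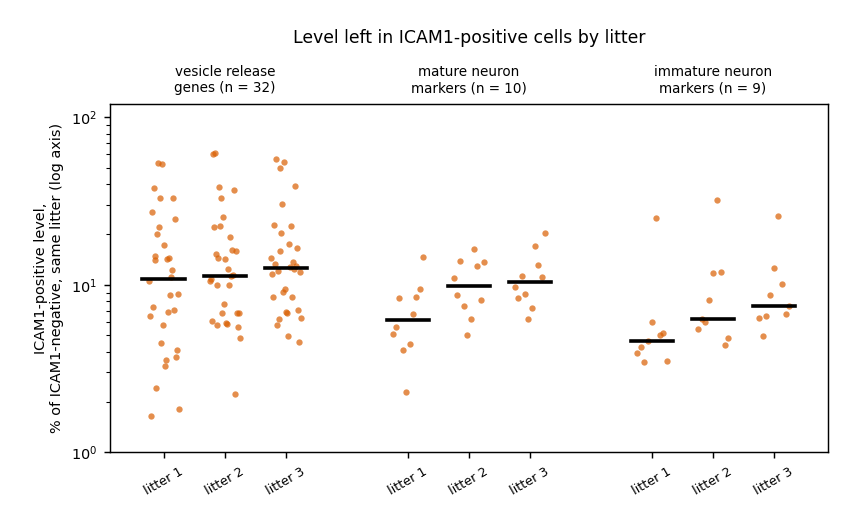
Level on the ICAM1-positive array as a percent of the ICAM1-negative array of the same litter (log axis), for the 32 lower vesicle release genes and the neuron markers that fell; points are genes and bars are medians. The medians of all 32 vesicle release genes lie at 10.8%, 11.3% and 12.6%, above those of both marker lists in each litter. These 32 include 8 genes under the array median on every ICAM1-positive array. The 15 above it on all arrays, not drawn apart, had medians of 8.67%, 6.82% and 9.01%. In litters 2 and 3 those lie under the mature marker medians of 9.87% and 10.5%.

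Genes of the same pathway outside the list were called in both directions. Of 108 listed in 5 groups, 98 were tested, 30 were lower and 18 higher, against 22.2% and 21.3% of all genes, with a median log2 difference of -0.18. No group's share was tested against that of all genes. Without a litter the counts were 13 to 15 lower and 9 or 10 higher. Among priming and SNARE regulators 8 of 22 were lower and 1 higher. Cadps, a priming factor of dense-core vesicles, was the first of these (-4.01 ± 0.21, adjusted p = 0.00413). Rab3il1, a Rab exchange factor gene, was the higher one (adjusted p = 0.0119; 0.0694 without litter 2, 0.0656 with low values raised and 0.0533 with probe sets averaged). Among other synaptotagmins and C2 proteins 5 of 16 were lower and 2 higher, led by Sytl2 (-3.34 ± 0.15), Syt14 (-3.10 ± 0.17) and Syt16, at least 7.76-fold lower. Syt12, which lacks calcium binding, was at least 2.37-fold higher (adjusted p = 0.0158; 0.0847 without litter 1 and 0.0610 without litter 2). Of 21 endocytosis genes 7 were lower and 3 higher, with Dnajc6, the neuronal uncoating factor auxilin (-2.78 ± 0.19), and Ston2, a stonin adaptor (2.05 ± 0.17), at the head of each direction.

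Of 19 other SNAREs and fusion factors 5 were lower and 8 higher. Vamp5 had 1568, 2220 and 1865 in ICAM1-positive cells and 69.1, 98.2 and 109.5 in ICAM1-negative cells (4.36 ± 0.16, adjusted p = 0.00406). Vamp8, the synaptobrevin relative of secretory granules and endosomes, had 4138, 5324 and 4114 in ICAM1-positive and 410.6, 476 and 497.6 in ICAM1-negative cells (3.29 ± 0.16, adjusted p = 0.00406). Both were therefore opposite to Vamp1 and Vamp2. Stxbp2, encoding Munc18-2, which serves syntaxins of epithelial and blood cells, was higher (2.48 ± 0.21, adjusted p = 0.00673). Stx2, a plasma membrane syntaxin, followed Stx1a instead (-3.29 ± 0.14, adjusted p = 0.00406), as did Napg (-1.49 ± 0.13) and Nsf (-1.57 ± 0.14), the general disassembly factors. The last pair lost their calls without litter 1 (adjusted p = 0.0556 and 0.0550).

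Of 20 other vesicle membrane and transport genes 5 were lower and 4 higher, close to the shares over all genes. Rab27b had 2098, 2000 and 1780 in ICAM1-positive cells and 103.3, 105.3 and 55.7 in ICAM1-negative cells (4.53 ± 0.22, adjusted p = 0.00406). Rab27a had 2178, 1861 and 1982 in ICAM1-positive cells and 150.5, 138.7 and 90.7 in ICAM1-negative cells (4.02 ± 0.21, adjusted p = 0.00413). These GTPases dock secretory granules and melanosomes. Syngr2, the synaptogyrin of cells outside the nervous system, was higher (2.54 ± 0.25, adjusted p = 0.00854; 0.0502 without litter 1 and 0.0568 without litter 3), while Syngr1 (-2.32 ± 0.15) and Syngr3 (-2.26 ± 0.25) of neurons were lower. Syngr3 missed the threshold without litters 1 (0.0549) and 3 (0.0635).

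Some relatives of the listed members had the opposite sign, and others did not; those in the next sentences were named after their values were seen. Snap23 was higher by 1.97 ± 0.29 (adjusted p = 0.0179; 0.0892 without litter 2 and 0.0836 without litter 3) where Snap25 was lower by 4.50 on the log2 scale. Vamp3 was higher by 1.34 ± 0.13 (adjusted p = 0.00853; 0.0650 without litter 1 and 0.0574 without litter 2). Stx4a rose by 1.05 ± 0.18 (adjusted p = 0.0236) and Rab3d by 1.05 ± 0.13 (adjusted p = 0.0128), and neither passed without any 1 litter (0.0578 to 0.115). Stx7 (-1.14) and Stx12 (-1.05), syntaxins of endosomes, were lower (adjusted p = 0.0105 and 0.0122), and neither passed without any 1 litter (0.0586 to 0.0836). Snap29 (-0.49), Vamp4 (0.47), Vamp7 (-0.08) and Dnm2 (0.19) did not pass. Of 7 syntaxins 2 were higher and 4 lower, and of 16 numbered synaptotagmins 1 was higher and 10 lower. The 4 RIM genes had 3 lower, all of them listed members, and 0 higher. These family totals include the listed members, and over all genes 22.2% were lower and 21.3% higher. No family's share was tested. Markers of macrophages (9 of 10 higher) and of horizontal basal cells (8 of 8 higher) rose in the same arrays as these relatives. The summed macrophage list ran from 17430 to 22270 on ICAM1-positive and from 1130 to 1351 on ICAM1-negative arrays, and the horizontal basal list from 92480 to 96970 and from 302.8 to 773.6. Of 6 sustentacular cell markers tested, 3 were higher and 1 lower. That list summed to 51210 to 60550 on ICAM1-positive and 30560 to 44060 on ICAM1-negative arrays. Which cells carried the relatives was not tested.

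**Figure D4:**
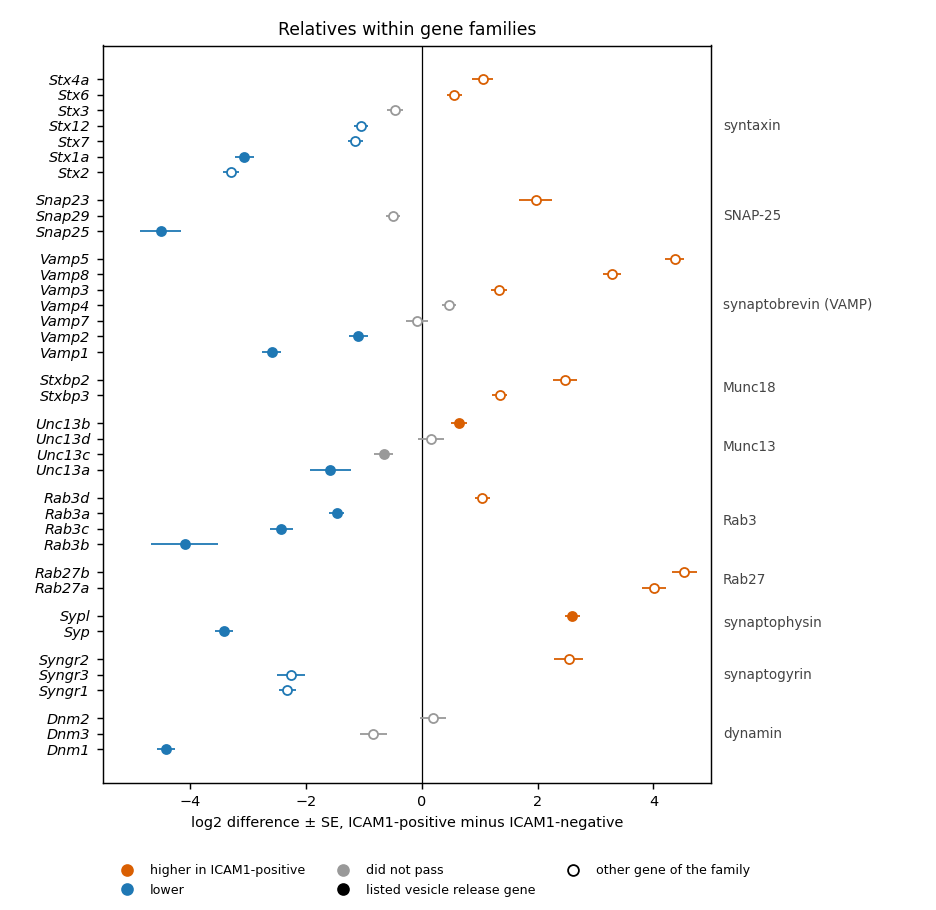
Log2 difference ± SE (ICAM1-positive minus ICAM1-negative) of relatives in 10 gene families. Filled points are the listed genes of these families and open points other genes of the pathway. Orange is higher, blue lower and grey did not pass. The synaptotagmins (10 of 16 lower, 1 higher), RIM genes (3 of 4 lower, 0 higher) and complexins are not drawn. Sypl, Snap23, Vamp3, Vamp5, Vamp8, Rab3d and Syngr2 lie right of 0 and Syp, Snap25, Vamp1, Vamp2, Rab3a, Syngr1, Stx7 and Stx12 left of it.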

How the data were processed

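The authors deposited 1 table of linear array intensities, 1 column per sort and litter. Per the submitters' processing notes the tool was GCRMA, but the deposited intensities are not on a log2 scale and each array has a mean of 500 after 2% is trimmed from each end; the program that made them is not given in the sources used here. Per the labels' protocols RNA was purified with TRIzol, and per the series text it was amplified in 2 rounds. After a log2 transform and removal of 64 Affymetrix controls, 38694 probe sets with a log2 value above 4 on at least 3 of the 6 arrays were tested with limma 3.58.1 (R 4.3.3; lmFit, eBayes without trend), ICAM1-positive minus ICAM1-negative, with litter as a block, and Benjamini-Hochberg adjustment over all of them at 0.05. A gene is its single-symbol probe set with the highest mean, which gave 16399 genes. All 41 members' Entrez IDs and symbols matched RefSeq.

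Replicate numbers pair the samples, since the series text makes each replicate 1 litter. Deviations from the sort means correlated at 0.081 to 0.199 within litters and at -0.15 to 0.033 between litters. The deviations of a probe set cancel out within a sort, so these ranges are tied and the second is no separate check. A sort whose 3 arrays all lay under their medians was set to those medians. The resulting ratio is printed as at least N-fold, without an error. An adjusted p beside such a ratio is that of the fit without raising. The medians over genes and the figures use fitted differences. Errors are SD over 3 arrays for intensities and SE of the fit for log2 differences. With 6 arrays the precision is limited. On simulated data with few changed probe sets the fit recovered the sizes put in but called few of them. The members, lists and tests were chosen with earlier results of these data known. Values on each array are given for the 14 called members with the largest difference, those that rose, those alone in passing in their role, and, chosen after their values were seen, Stx1a, Rims1, Unc13a, Unc13c and Cplx1. Other members have means, ranges or tests, and each pathway list at most its 3 genes with the smallest adjusted p in each direction. Alternatives were no litter block, low values raised, no filter or a stricter filter, quantile normalisation, a pseudocount of 32, a variance trend, averaged probe sets and leaving out each litter. Scan dates and scanner files were not used here.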

Additional observations from a re-analysis of the deposited data

How the results depend on the processing

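The number of lower members lay between 24 and 34 in all alternatives, against 32, and the number higher between 1 and 2. Only Sypl was higher with no filter on low values (1), with probe sets averaged (1) and without litter 1, 2 or 3 (1 each). The median log2 difference of members, -2.89, was -2.34 with low values raised to the array median, -3.06 with genes kept above the array median, -2.29 with log2 of the value plus 32 and -2.65 with probe sets averaged, and it ran from -3.01 to -2.75 when a litter was left out. Of the 41 members, 21 passed in all 11 alternatives. Without the litter block as a pairing, 32 members were lower, 2 higher and the median was -2.89; 67 and 7 of their probe sets, 27 and 21 pathway genes, and 6984 and 6528 of all probe sets were lower and higher. It changed the calls of Syt2 and Doc2b alone among members. Leaving out a litter moved the counts over all probe sets to 2311 to 3022 lower and 2556 to 3101 higher, against 7476 and 6899, those of member probe sets to 46 to 55 lower and 6 higher, and those of pathway genes to 13 to 15 lower and 9 to 10 higher, against 30 and 18; such a fit has 2 pairs of arrays. Members near or under the array median (Syt2, Doc2b, Rph3a, Slc17a7, Slc32a1) are limited by signal over background.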
